A study of Homo sapiens with 4 samples.

Results

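The 36 genes described here encode the enzymes of glycolysis, of the pentose phosphate pathway, of lactate formation and export and of the entry of pyruvate into mitochondria. They were chosen by gene symbol from a list of these pathways, and all 36 were present among the 25268 symbols of the expression table. Of them, 34 had a mean of at least 1 FPKM (fragments per kilobase of transcript, scaled to the mapped fragments of the library) over the 4 libraries and were described together with the 11147 genes that passed this limit. The aldolase gene ALDOC and the pyruvate dehydrogenase kinase gene PDK4 did not pass.

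The libraries came from SK-MEL-28, an established human melanoma cell line, made by lentiviral transduction with either the empty vector pTRIPZ (the vector line) or a MYC gene behind a tetracycline-inducible promoter (the MYC-inducible line, MYC line below). MYC is a transcription factor that drives growth and metabolism, and doxycycline (Dox) switches such promoters on. Each line was cultured without Dox or with Dox for 54 h, and each of the 4 conditions was sequenced once. Without replicates no difference between conditions could be set against the spread between cultures, and no test was made. The vector line treated with Dox therefore served as the measure of how far values moved without the transgene. Both lines were grown with G418, also called geneticin, in which the transduced cells had been selected, and whether they were clones or pools is not given in the sources used here.

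Glycolysis splits glucose into pyruvate in the cytosol and yields ATP and NADH. Lactate dehydrogenase reoxidises the NADH by reducing pyruvate to lactate, which leaves the cell through monocarboxylate transporters, whereas the pyruvate dehydrogenase complex turns pyruvate into acetyl-CoA for the tricarboxylic acid (TCA) cycle. The pentose phosphate pathway branches off at glucose 6-phosphate and supplies NADPH and ribose 5-phosphate for nucleotides. Tumour cells often use glycolysis even when oxygen is present, and several of these genes are known targets of both MYC and the hypoxia-inducible factors.

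The summed FPKM per library lay between 692146 and 715495. From the steps between low values, the depth was estimated as about 34900000 to 41900000 fragments per library, and the counting errors below follow from this estimate and cover counting only. MYC itself had 58.3, 54.8, 76.5 and 87.1 FPKM in the vector line without and with Dox and in the MYC line without and with Dox, respectively. All sets of 4 values below are FPKM in this order. The MYC level thus differed more between the lines than with Dox within the MYC line, where it was 0.19 higher on the log2 scale. By assays other than RNA-seq, the authors reported higher MYC mRNA (RT-PCR) and higher activity of a MYC reporter with Dox in the MYC line. Transgene and endogenous transcripts cannot be told apart in this table. All 8 melanocyte markers examined exceeded 10 FPKM in every library, and 8 of 9 markers of blood, endothelial, epithelial, stromal and liver cells were below 1 FPKM in every library, the exception being EPCAM with up to 2.71 FPKM in the MYC line with Dox. The summed FPKM of the melanocyte markers was 8578, 8467, 8433 and 4666, and its part in the changes below was not tested. In these bulk libraries, fewer cells of a type and less RNA per cell cannot be told apart.

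The changes with Dox in the MYC line went in both directions, as they did over all genes tested. Genes of the same step differed in direction in some cases, such as SLC16A1 and SLC16A3 of lactate transport. In others, such as the hexokinases and the glucose transporters, they went the same way. The ribose-phosphate isomerase gene RPIA rose 2.23-fold, and ENO2, SLC2A3 and SLC16A3, which encode an enolase, a glucose transporter and a lactate exporter, fell 2.09-, 1.89- and 1.55-fold. GPI, LDHB, PDHA1 and SLC16A1 were higher by 0.46, 0.49, 0.54 and 0.57 on the log2 scale, while the 5 most abundant members differed by less, from -0.26 to 0.10. Here and below, a change is the difference of log2(FPKM + 0.1) between 2 libraries of a line, and "rose" and "fell" are used for changes of at least 1.5-fold.

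The counts of changed members were set beside those of all genes tested. In the MYC line 1 of the 34 members, or 2.94%, rose, against 5.90% of all genes tested, and 3 members, or 8.82%, fell, against 8.85%. At a lower threshold, at which the larger value exceeds the smaller by at least 25%, a count added after the values were seen, 7 members were higher (20.6%, against 16.9% of all genes) and 7 were lower (20.6%, against 21.4%), and 20 differed by less than 25%. The higher ones were GPI, LDHB, SLC16A1, PDHA1, PGD, TKT and RPIA, and the lower ones were SLC2A3, HK2, PFKFB4, ENO2, ENO3, SLC16A3 and PDK2. Over all genes 658 rose and 986 fell, a split that depended on the scaling of the libraries, with 809 and 845 after division by the median ratio and 525 and 1147 after rescaling to the same sum. In the vector line no member reached 1.5-fold in either direction, where 0.709% of all genes were higher and 0.440% lower, and none reached 25%, where 2.36% were higher and 1.72% lower. The median change of the members was -0.05 in the MYC line and -0.02 in the vector line on the log2 scale, beside -0.03 and 0.01 for all genes. The largest change in the vector line was that of PKM, 1.22-fold. The library of the MYC line with Dox lay above the other 3 for 14 members and below them for 15, which was 41.2% and 44.1% of the members and 40.2% and 42.9% of all genes.

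**Figure D1:**
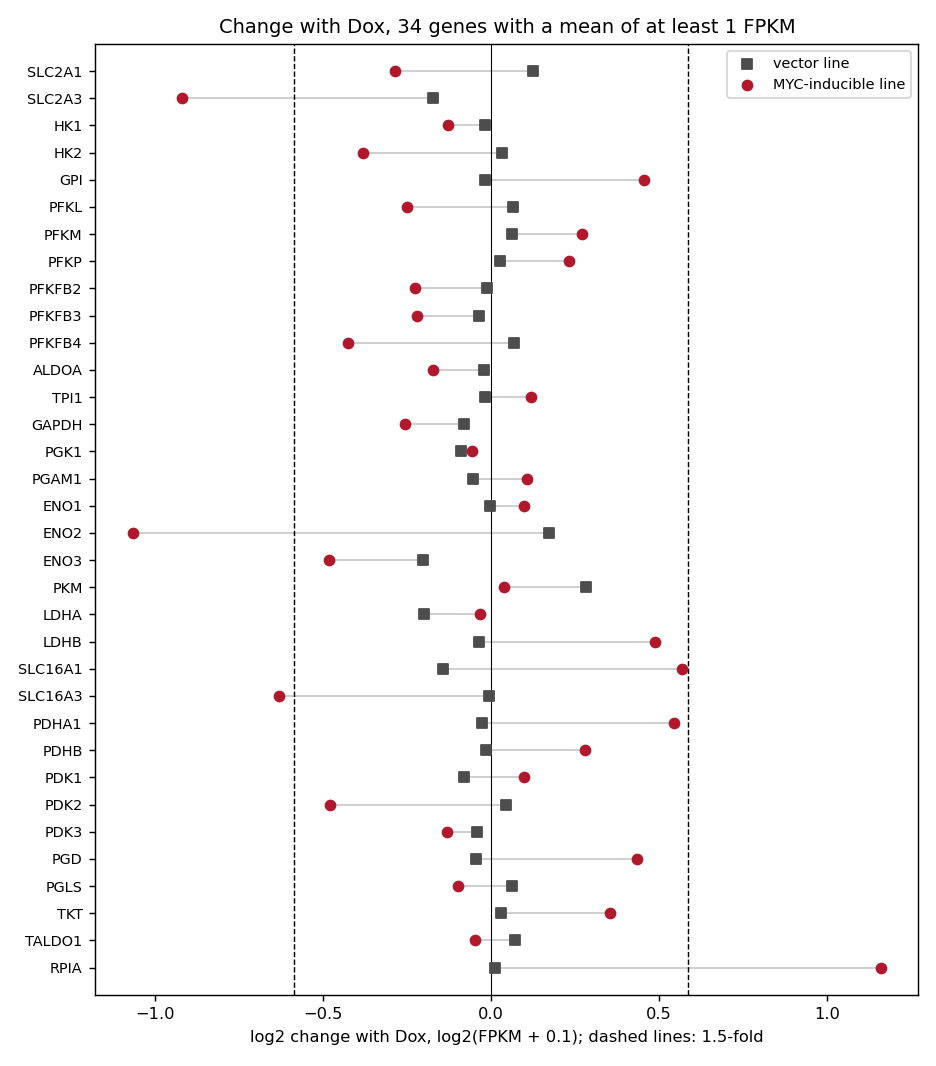
Log2 change with Dox for each of the members that passed the expression limit, in the MYC line and in the vector line, from 1 library per condition. Changes ran from -1.07 (ENO2) to 1.16 (RPIA) in the MYC line and from -0.20 to 0.28 in the vector line.

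To show the DNA beside the values, the promoters of 4 members are printed, chosen as the lactate dehydrogenase pair, whose balance shifted, and the members with the largest fall and the largest rise. Each window holds 250 bases before and 50 bases after an annotated start, 5′ to 3′ on the gene's strand, from RefSeq on GRCh38.p14. Capitals mark every match to ACGTG on either strand. This sequence lies within the E-box CACGTG, which MYC binds with its partner MAX. It is also a form of the core of the hypoxia response element, and other forms of that core were neither marked nor counted.
LDHA: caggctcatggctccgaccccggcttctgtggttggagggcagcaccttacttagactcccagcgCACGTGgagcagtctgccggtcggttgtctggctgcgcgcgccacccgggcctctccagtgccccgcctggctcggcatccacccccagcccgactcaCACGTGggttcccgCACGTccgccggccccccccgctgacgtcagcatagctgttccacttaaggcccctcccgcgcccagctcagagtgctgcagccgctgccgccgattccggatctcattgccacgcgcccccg
LDHB: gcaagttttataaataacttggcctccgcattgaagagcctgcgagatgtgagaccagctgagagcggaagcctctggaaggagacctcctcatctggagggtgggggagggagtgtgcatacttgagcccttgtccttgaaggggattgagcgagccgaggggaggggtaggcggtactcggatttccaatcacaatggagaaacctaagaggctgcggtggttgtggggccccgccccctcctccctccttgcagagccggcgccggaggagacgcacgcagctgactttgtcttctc
ENO2: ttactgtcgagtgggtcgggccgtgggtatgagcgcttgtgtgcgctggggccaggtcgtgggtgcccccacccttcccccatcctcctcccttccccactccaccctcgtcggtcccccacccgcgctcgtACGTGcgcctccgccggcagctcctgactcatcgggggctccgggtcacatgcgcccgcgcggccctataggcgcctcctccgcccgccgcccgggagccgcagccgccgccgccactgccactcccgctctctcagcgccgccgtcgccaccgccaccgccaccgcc
RPIA: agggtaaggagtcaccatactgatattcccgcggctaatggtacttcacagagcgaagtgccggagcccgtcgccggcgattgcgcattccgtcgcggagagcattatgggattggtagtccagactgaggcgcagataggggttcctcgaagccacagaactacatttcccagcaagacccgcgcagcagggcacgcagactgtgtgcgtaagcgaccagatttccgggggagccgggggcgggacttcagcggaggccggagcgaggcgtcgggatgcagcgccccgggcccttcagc
The windows lie at chr11:18394313-18394612 (LDHA, plus strand), chr12:21657793-21658092 (LDHB, minus strand), chr12:6914330-6914629 (ENO2, plus strand) and chr2:88691423-88691722 (RPIA, plus strand). That of LDHA held CACGTG starting 185 and 87 bases before the start, and a further ACGTG 73 bases before it, whereas the window at the other annotated start of LDHA (chr11:18396101-18396400) held neither. ENO2 had a single ACGTG, 118 bases before the start, and neither sequence was found in the windows of LDHB and RPIA. Promoters were given for 33 of the 36 members, not for SLC2A3, PFKFB2 and SLC16A1. Counting any window of a gene, and both strands, 8 of the 33 held CACGTG (24.2%), against 8.77% of 27305 genes, and 18 held ACGTG (54.5%), against 24.9%. The 27305 are all genes with a window, expressed here or not, rather than the 11147 genes tested, and base composition was not matched. The members had more windows per gene than other genes, 62 for 33 genes against 35116 for 27305. Per window the shares were closer, 12.9% against 7.26% for the longer motif and 35.5% against 21.4% for the shorter. A CACGTG is also an ACGTG on each strand, so the counts overlap. Of the 6 members with a window that were at least 25% higher with Dox in the MYC line, none held CACGTG and 2 held ACGTG (GPI and PGD). Among the 6 that were lower past the same threshold, 2 held CACGTG (HK2 and PDK2) and 4 held ACGTG (HK2, ENO2, SLC16A3 and PDK2). A match describes the letters of the window and is not a measured binding site.

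Glucose enters cells through facilitative transporters. SLC2A3, which encodes the high-affinity transporter GLUT3 (GRCh37 chromosome 12, 8071826 to 8171603), had 10.41, 9.22, 10.7 and 5.62 FPKM. The library of the MYC line with Dox was the lowest, and the change of -0.92 had a counting error of 0.06. SLC2A1, which encodes the widespread transporter GLUT1, had 29.2, 31.8, 31.1 and 25.5 FPKM. Its change was -0.28 in the MYC line and 0.12 in the vector line. As a share of their summed FPKM, SLC2A1 made up 73.7%, 77.5%, 74.4% and 82.0%. The sum of both transporters was 41.8 FPKM without and 31.1 FPKM with Dox in the MYC line, and 39.6 and 41.0 FPKM in the vector line.

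Hexokinases trap glucose as glucose 6-phosphate. HK2, the form induced in many tumours, had 57.5, 58.8, 55.8 and 42.9 FPKM and was 1.3-fold lower in the MYC line with Dox (-0.38). HK1, the form of most tissues, had 24.4, 24.1, 25.3 and 23.1 FPKM, so that HK2 made up 70.2%, 70.9%, 68.8% and 64.9% of the pair. The next enzyme, glucose-6-phosphate isomerase (GPI), went the other way, with 140.5, 138.9, 140.4 and 192.6 FPKM. Its first 3 values were nearly equal, and the last was 1.37-fold higher.

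The committed step is catalysed by phosphofructokinase, built from liver (PFKL), muscle (PFKM) and platelet (PFKP) type subunits. PFKL had 68.0, 71.2, 72.1 and 60.6 FPKM. PFKM had 38.6, 40.3, 41.2 and 49.7 FPKM, and PFKP had 35.5, 36.2, 37.4 and 43.9 FPKM. None of the 3 reached the 25% threshold, but PFKL was lower and the others were higher, and their sum was 150.7 FPKM without and 154.2 FPKM with Dox in the MYC line. The share of PFKL was 47.8%, 48.2%, 47.8% and 39.3%. The PFKFB genes encode the enzymes that make and remove fructose 2,6-bisphosphate, the main activator of phosphofructokinase. PFKFB4 had 18.4, 19.3, 19.1 and 14.2 FPKM, 1.34-fold lower with Dox in the MYC line. PFKFB2 and PFKFB3 had values of -0.23 and -0.22 for this difference on the log2 scale, under the 25% threshold. PFKFB4 shares 298 exon bases on the same strand with UCN2, which encodes the peptide urocortin 2 and had 371.1, 401.8, 359.9 and 222.3 FPKM, so fragments of the abundant neighbour could be assigned to it; this was not tested.

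The steps from aldolase to pyruvate kinase held the most abundant members. ALDOA, the main aldolase, had 1690, 1667, 1644 and 1457 FPKM. GAPDH, the glyceraldehyde-phosphate dehydrogenase often used as a reference gene, had 5199, 4921, 4974 and 4162 FPKM. It was 1.2-fold lower in the MYC line with Dox (-0.26), and its change in the vector line was -0.08. By level it ranked 8 among all genes tested in the vector line without Dox and 17 in the MYC line with Dox. The abundant enolase gene ENO1 had 2738, 2730, 2841 and 3039 FPKM, a difference of 0.10 with Dox in the MYC line. PKM, which encodes pyruvate kinase, had 1344, 1634, 1386 and 1423 FPKM, and here the vector line with Dox was the highest library. Its M1 and M2 isoforms cannot be separated in values per gene. TPI1, PGAM1 and PGK1 encode triose-phosphate isomerase, a phosphoglycerate mutase and a phosphoglycerate kinase, and their changes were 0.12, 0.11 and -0.06. The annotation lists numbered pseudogenes for 16 of the members, 65 of them for GAPDH, with which fragments could be shared.

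**Figure D2:**
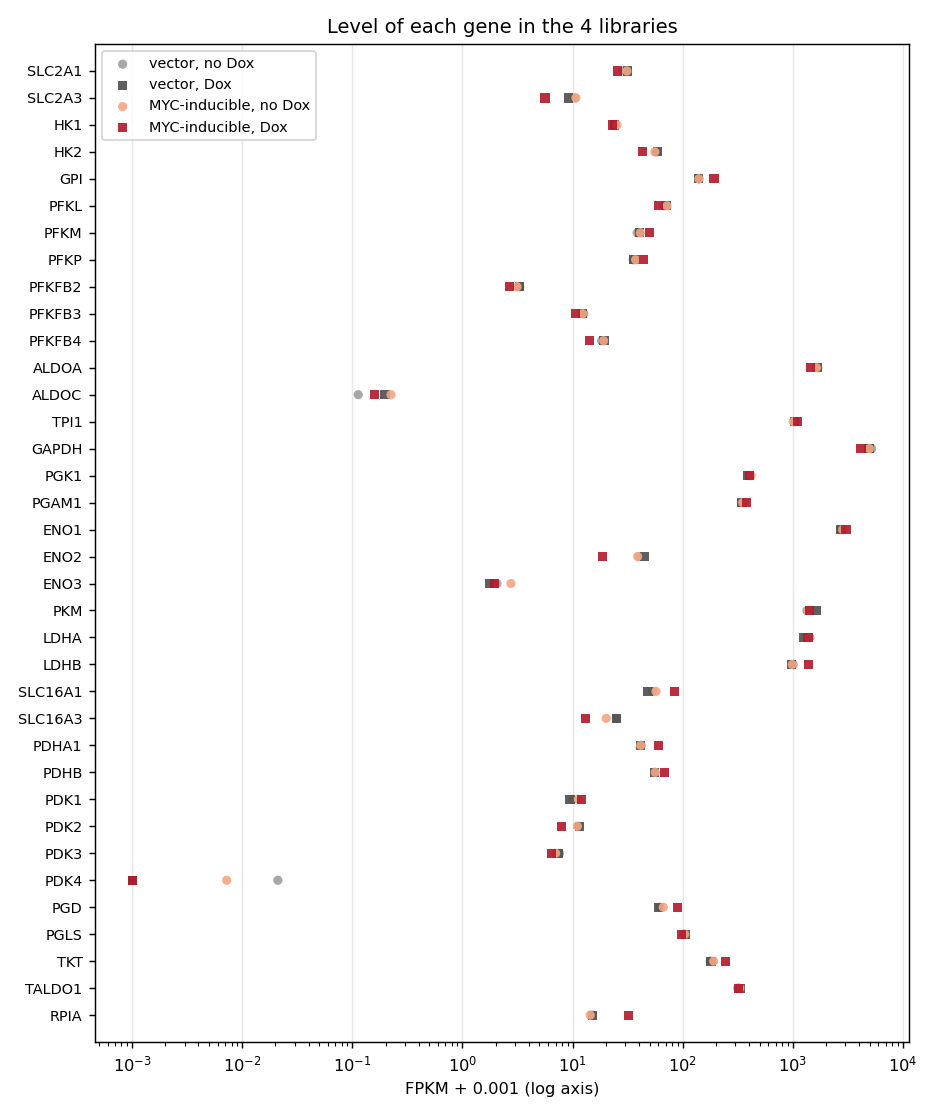
FPKM of the members in each of the 4 libraries, on a log axis, ordered by role. Levels spanned from below 1 FPKM (ALDOC and PDK4) to 5199 FPKM for GAPDH in the vector line without Dox.

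ENO2, the enolase of neurons and neuroendocrine cells (GRCh37 chromosome 12, 7022909 to 7032861), stood apart from ENO1. Its values were 40.1, 45.2, 39.1 and 18.6 FPKM. With Dox it fell in the MYC line by 1.07 on the log2 scale, with a counting error of 0.04, and was higher by 0.17 in the vector line. The fall ranked 185 among all genes tested. As a share of the 3 enolases it was 1.44%, 1.63%, 1.36% and 0.609%, so the summed enolase level hardly depended on it. ENO3, the muscle form, had 2.06, 1.77, 2.75 and 1.94 FPKM, or about 89.9 to 168 fragments. It was 1.4-fold lower with Dox in the MYC line, but higher by 0.13 when compared with the vector line with Dox, and the untreated lines already differed by 0.41. It also shares 111 exon bases on the opposite strand with PFN1, a profilin gene with 837.9 to 920.1 FPKM. Whether strand was used in counting is not given in the sources used here.

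Below 1 FPKM, ALDOC had 0.112, 0.197, 0.223 and 0.159 FPKM, or about 7 to 15 fragments, and no difference was detectable at this depth. PDK4 was listed at 0 in both libraries with Dox and at no more than 0.0201 FPKM in the others.

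Lactate dehydrogenase is a tetramer of subunits encoded by LDHA, which favours lactate formation, and LDHB, which favours the reverse reaction. LDHA had 1430, 1246, 1404 and 1372 FPKM. Its change in the MYC line was -0.03, smaller than that in the vector line (-0.20). LDHB (GRCh37 chromosome 12, 21788276 to 21910791) had 1007, 981.4, 989.5 and 1387 FPKM. The first 3 libraries lay close together, and the library of the MYC line with Dox was 1.4-fold above its partner, a change of 0.49 with a counting error of 0.008. The ratio of LDHA to LDHB was 1.42, 1.27, 1.42 and 0.989, and LDHB made up 41.3%, 44.1%, 41.3% and 50.3% of the pair.

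The genes of lactate transport went in opposite directions with Dox in the MYC line. SLC16A1 encodes the widespread monocarboxylate transporter MCT1 (GRCh37 chromosome 1, 113454469 to 113500215) and had 53.4, 48.4, 57.2 and 84.8 FPKM. The library of the MYC line with Dox was the highest, and its difference of 0.57 lay just inside the 1.5-fold threshold. SLC16A3 encodes MCT4, the exporter typical of strongly glycolytic cells (GRCh37 chromosome 17, 80175810 to 80219005), and had 24.9, 24.9, 20.2 and 13.02 FPKM. Its fall of 0.63 on the log2 scale lay just outside the threshold, and the untreated MYC line already differed from the untreated vector line by -0.30. Scaling by the median ratio put SLC16A1 past the threshold (0.61) and SLC16A3 just inside it (-0.58). SLC16A3 shares 482 exon bases on the opposite strand with CSNK1D, a kinase gene with 30.4 to 38.3 FPKM. The ratio of SLC16A1 to SLC16A3 was 2.14, 1.94, 2.83 and 6.51. Their sum was 77.4 FPKM without and 97.8 FPKM with Dox in the MYC line, and 78.4 and 73.2 FPKM in the vector line.

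The pyruvate dehydrogenase subunits were both higher. PDHA1, the alpha subunit of the E1 enzyme, had 41.9, 41.2, 41.6 and 60.7 FPKM, 1.46-fold higher with Dox in the MYC line. PDHB, the beta subunit, had 55.8, 55.2, 56.3 and 68.3 FPKM, a change of 0.28. Pyruvate dehydrogenase kinases switch this enzyme off. PDK2 had 11.2, 11.6, 11.1 and 7.91 FPKM and was 1.39-fold lower. PDK1 had 10.01, 9.47, 11.3 and 12.1 FPKM, and PDK3 had 7.60, 7.39, 7.01 and 6.39 FPKM. PDK2 made up 38.9%, 40.8%, 37.7% and 30% of the family and PDK1 34.7%, 33.3%, 38.4% and 45.8%, so that PDK2 led in the vector line, both were nearly equal in the untreated MYC line, and PDK1 led in that line with Dox. MAP3K15 and SAMD14, which share exon bases with PDHA1 and PDK2, had at most 0.353 and 0.0543 FPKM.

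In the pentose phosphate pathway 3 of the 5 members were at least 25% higher with Dox in the MYC line, beside 16.9% of all genes tested, and the median change was 0.35, beside -0.03. RPIA, which converts ribulose 5-phosphate to ribose 5-phosphate (GRCh37 chromosome 2, 88991191 to 89050446), had 15.0, 15.1, 14.5 and 32.4 FPKM. Its first 3 values differed little, and the last gave a rise of 1.16 on the log2 scale with a counting error of 0.05, which ranked 69 among the rises of all genes tested. PGD, the second dehydrogenase of the oxidative branch, had 62.1, 60.2, 66.6 and 90.1 FPKM. TKT, the transketolase that links the pathway back to glycolysis, had 177.4, 180.9, 191.4 and 244.8 FPKM. Both were highest in the MYC line with Dox, by 1.35- and 1.28-fold over the same line without it. The lactonase gene PGLS (101.4, 106.0, 104.3 and 97.6 FPKM) and the transaldolase gene TALDO1 (316.9, 332.7, 329.9 and 319.5 FPKM) differed by -0.10 and -0.05.

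Further genes of the same pathways were read from lists that include no member. For comparison, 46.8% of all genes tested were higher and 53.1% lower with Dox in the MYC line, 5.90% rose and 8.85% fell, and the median change was -0.03. Among 11 other glycolysis and gluconeogenesis genes that passed the expression limit, 1 rose and 2 fell in the MYC line, with a median of -0.18. GAPDHS, the glyceraldehyde-phosphate dehydrogenase of sperm, fell 3.04-fold, with 165.4, 139.2, 158.8 and 52.1 FPKM. PGAM5 rose by 0.76 on the log2 scale, with 23.7, 25.4, 25.5 and 43.4 FPKM, and despite its name is a mitochondrial protein phosphatase. Of 9 other pentose phosphate genes none rose and 1 fell (median 0.10), and of 8 other transport and lactate genes none rose and 2 fell (median -0.30). The latter were SLC2A10, a glucose transporter gene with 1.41, 1.11, 1.40 and 0.665 FPKM, and LDHD, the D-lactate dehydrogenase, with 3.95, 4.10, 3.61 and 2.01 FPKM.

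The lists of pyruvate entry and the TCA cycle and of the hypoxia response leaned in opposite directions. The first of them includes cytosolic enzymes as well as mitochondrial ones. Of 30 genes of pyruvate entry and the TCA cycle, 22 (73.3%, against 46.8% overall) were higher in the Dox-treated MYC line, 3 rose (10%, against 5.90%) and 1 fell (3.33%, against 8.85%), with a median of 0.16. The gene that fell was IDH2, a mitochondrial isocitrate dehydrogenase, with 75.9, 74.2, 88.7 and 52.1 FPKM. The 3 that rose were named after their values were seen. DLAT, the E2 subunit of pyruvate dehydrogenase, had 7.16, 7.11, 7.45 and 11.4 FPKM. The others were ME1 and ME2, a cytosolic and a mitochondrial malic enzyme, which form pyruvate from malate. Their log2 changes were 0.59 and 0.62. Of 23 hypoxia-response genes, 15 (65.2%, against 53.1% of all genes) were lower, none rose and 9 fell (39.1%, against 8.85%), with a median of -0.34. Those that fell most were NDRG1, with 7.35, 7.93, 7.54 and 3.11 FPKM, and the mitophagy receptor gene BNIP3L, with 26.4, 24.5, 26.2 and 12.9 FPKM. ANKRD37, P4HA2 (a collagen prolyl hydroxylase), ADM (adrenomedullin) and BHLHE40 (a transcription repressor) fell as well, with log2 changes of -0.99, -0.89, -0.87 and -0.80. The list did not move as one: VEGFA and FAM162A, named after their values were seen, were higher by 0.10 and 0.52. It also holds regulators of the response, HIF1A, EPAS1, ARNT and VHL, likewise named after their values were seen. Among the 9 that fell were HIF1A and EPAS1, with log2 changes of -0.63 and -0.76. Set against the vector line with Dox, 6 of the 23 were at least 1.5-fold lower (26.1%, against 8.62% of all genes). HIF1A differed by -0.21 in that comparison. In the vector line no gene of these lists reached 1.5-fold, and the list medians lay between -0.04 and 0.05. The glucose-sensing list described further below had a vector-line median of 0.10.

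**Figure D3:**
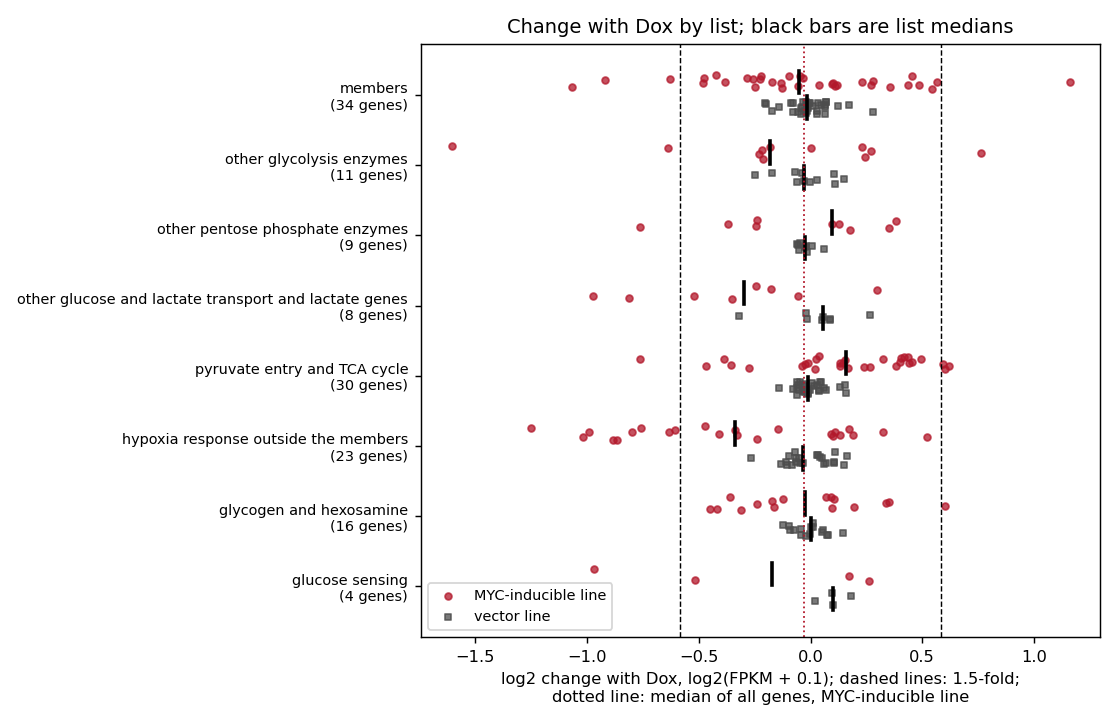
Log2 change with Dox in the MYC line and in the vector line for the members and for each list of related genes, 1 point per gene. In the MYC line the median is 0.16 for pyruvate entry and the TCA cycle and -0.34 for the hypoxia response.

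The summed FPKM of the 36 members hardly differed between libraries. It was 16578, 16326, 16422 and 16251, or 2.36%, 2.30%, 2.37% and 2.27% of the library. The 7 genes from GAPDH to PKM contributed 10092, 10062, 10014 and 9428 FPKM of it.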

How the data were processed

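SK-MEL-28 cells were profiled by RNA-seq in 4 conditions with 1 library each. The authors deposited a table of FPKM values per gene; the submitters' processing notes name TopHat2 2.0.14, Cufflinks and hg19, and the annotation, the strand setting and the program that made the FPKM values are not given in the sources used here. The 27032 rows were joined to 25268 symbols by summing the 609 symbols with several rows, none of them a member, after leaving out 1 row without a gene name. All 4 value columns were matched to samples.

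Changes were differences of log2(FPKM + 0.1), for genes averaging at least 1 FPKM, computed with Python 3.11.15, numpy 2.4.6 and pandas 2.3.3, after the code was tested on simulated data. FPKM on the log2(value + pseudocount) scale understates the change of low genes. Calls were made at 1.5-fold. No count model and no test was used, because FPKM values are not counts and each condition has 1 library. Approximate depth came from 121 single-transcript genes of low FPKM; the quartiles of the estimate for the vector line without Dox were 32800000 and 40700000 fragments. Positions and transcript lengths were from GENCODE 44 on GRCh37, promoters from RefSeq.

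All values are given for members that changed 1.5-fold, the 5 most abundant, and isoenzymes that diverged; from the other lists the 12 genes with the largest changes past 1.5-fold are named, and further genes are marked in the text as chosen after their values were seen. The members and lists were chosen with earlier results of these data known. Alternatives were other pseudocounts, filters, scalings, thresholds and reference library.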

Additional observations from a re-analysis of the deposited data

Results flagged for a closer look

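In 3 members the 2 lines moved in opposite directions with Dox, each by more than 0.107, the robust SD of the vector-line change over all genes. The change in the MYC line minus that in the vector line was -0.41 for SLC2A1, -1.24 for ENO2 and 0.71 for SLC16A1 on the log2 scale. With 1 library per condition the difference was not tested.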

How the results depend on the processing

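No paired analysis was possible because there were no replicates, and for the same reason no library could be left out. Of 61 recalculated summary values, 55 moved by less than 0.107 (medians, the robust SD of the vector-line change over all genes) or stayed within 1.5 times (counts), 5 moved further and 1 reversed. The median change of the members, -0.05, is small beside that spread. It was -0.0057 with scaling by the median ratio and -0.0993 after rescaling to the same sum, and it became 0.0005 when the Dox-treated MYC line was set against the Dox-treated vector line. The number of members at least 1.5-fold higher, 1, became 3 with scaling by the median ratio, where SLC16A1 (0.61) and PDHA1 (0.59) passed, and 2 with upper quartile scaling; at the 25% threshold it was 7. The number lower, 3, was 1 at 2-fold and 7 at 25%, and 2 with scaling by the median ratio, where SLC16A3 (-0.58) lay just inside 1.5-fold. Single members were judged by a spread set per decile of genes, from 0.0717 to 0.19 on the log2 scale. Of 206 recalculated values of single members 195 stayed within that spread and 11 moved, all against the Dox-treated vector line. Among them were ENO2 (-1.27), SLC2A3 (-0.70), SLC16A1 (0.81) and SLC16A3 (-0.93). The sign changed in some setting for 4 members, PGK1, ENO3, PKM and LDHA. Over all genes, upper quartile scaling gave 758 that rose and 897 that fell. The depth limits ALDOC, PDK4 and ENO3, and the lack of replicates limits every comparison.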

Other observations

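Side branches of glucose metabolism were also measured. Of 16 genes of glycogen and hexosamine metabolism, 1 rose with Dox in the MYC line (6.25%, against 5.90% of all genes tested). None fell, against 8.85% of all genes, and the median was -0.03, as over all genes. The gene that rose was GNPNAT1, which acetylates glucosamine 6-phosphate on the way to UDP-GlcNAc, with 9.95, 10.5, 10.3 and 15.6 FPKM. Within the same branch GFPT1, the entry enzyme, was 1.37-fold lower, with 14.6, 14.4, 14.5 and 10.6 FPKM, and UAP1, which makes UDP-GlcNAc, was 1.28-fold higher, with 22.6, 21.2, 21.8 and 27.8 FPKM. These 3 genes were named after their values were seen.

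Of 4 glucose-sensing genes that passed the expression limit, 1 fell and none rose. TXNIP, an arrestin-like protein that lowers glucose uptake, had 24.6, 27.9, 25.98 and 13.2 FPKM, and its relative ARRDC4 had 16.8, 17.1, 16.8 and 11.7 FPKM. The genes of their known activators, MLXIP and MLX, were higher by 0.17 and 0.26. ARRDC4, MLXIP and MLX were named after their values were seen.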
